A study of Homo sapiens with 9 samples.

Results

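The miRNAs described here are 7 mature species reported elsewhere to be made without Drosha: hsa-miR-320a-3p, hsa-miR-320b, hsa-miR-320c, hsa-miR-484, hsa-miR-877-5p, hsa-miR-877-3p and hsa-miR-1226-3p. They were found by name in a count table with 1 row for each pair of precursor and mature miRNA, in which, written below without the species prefix, they held 9 of 2883 rows, since miR-320b and miR-320c each have 2 precursor rows. Of these 9 rows, 8 passed the filter on low counts, as did 701 rows of the whole table, and the row of miR-877-3p did not.

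Human T lymphoblasts of 1 established line, Jurkat clone E6-1, gave all 9 libraries. Cells activated for 5 h or 12 h grew on plates coated at 10 µg/mL with anti-CD3, which binds the T cell receptor complex, in medium holding 5 µg/mL of anti-CD28, which binds a costimulatory receptor, and 0 h cells were not activated. Each time had 3 biological replicates. No unactivated cells of 5 h or 12 h were analysed here, so activation and time in culture cannot be told apart, and none of the labels names a change to Drosha or Dicer.

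Most miRNAs are cut from a long primary transcript by Drosha, as part of the nuclear Microprocessor complex, and then by Dicer in the cytoplasm. The miRNAs described here are known for routes that skip the nuclear cut. In one route, transcription itself starts and stops at the ends of a short hairpin, which keeps the cap of its 5′ end; miR-320 and miR-484 are the usual human and mouse examples. In the other, a short intron is spliced out, debranched and folded into a hairpin, called a mirtron; miR-877 and miR-1226 are examples. Both kinds of hairpin are still cut by Dicer.

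Mature sequences are shown first because they set which of these miRNAs can share targets and which cannot be told apart by a read. Of the 7 names, 6 matched an entry in the RefSeq table (build GRCh38.p14), the exception being miR-320a-3p. Each is written 5′ to 3′ with the seed, bases 2 to 8, in capitals; the seed is the stretch that pairs with most targets.
miR-320b: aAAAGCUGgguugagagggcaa
miR-320c: aAAAGCUGgguugagagggu
miR-484: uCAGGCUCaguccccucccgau
miR-877-5p: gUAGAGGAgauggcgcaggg
miR-877-3p: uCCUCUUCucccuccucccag
miR-1226-3p: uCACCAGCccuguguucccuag
The seed AAAGCUG was common to miR-320b and miR-320c, and the 2 sequences are the same over their first 19 bases. Among the other RefSeq entries it was found in miR-320d, with 320 counts over the 9 libraries, and miR-4429, with 15 counts. miR-320d shares its first 18 bases with miR-320b and with miR-320c, so counts split among these entries are uncertain for reads that end early. miR-320a-3p had no entry and was left out of this comparison. How its reads were told apart from those of miR-320b, at 675330 and 20421 counts, was not tested. The seed CAGGCUC of miR-484 was also held by miR-3155a and miR-3155b, both listed at 0 counts in every library. The seeds of miR-877-5p, miR-877-3p and miR-1226-3p were found in no other RefSeq mature miRNA of the table.

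The 2 mirtron hairpins are shown because their ends carry the splice-site letters of an intron. Their first 2 and last 2 bases are in capitals.
MIR877: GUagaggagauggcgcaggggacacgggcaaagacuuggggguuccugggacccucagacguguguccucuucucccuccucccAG
MIR1226: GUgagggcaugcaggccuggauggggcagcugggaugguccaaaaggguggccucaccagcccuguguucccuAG
MIR877 lies at chr6:30584332-30584417 on the plus strand, 86 bases that equal an intron of ABCF1, which encodes a factor of translation initiation. MIR1226 lies at chr3:47849555-47849629 on the plus strand, 75 bases that equal an intron of DHX30, which encodes an RNA helicase of mitochondrial ribosome assembly (GENCODE release 29 for both introns). miR-877-5p starts at the first base of its hairpin, and miR-877-3p and miR-1226-3p end at the last base of theirs. Among 1560 RefSeq hairpins on their own strand, 130 (8.33%) start with GU, 263 (16.9%) end with AG and 36 (2.31%) do both; a match of these letters is a description only. In 23 of the 1560 hairpins both ends equal those of an annotated intron, and all 23 are among the 36.

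**Figure D1:**
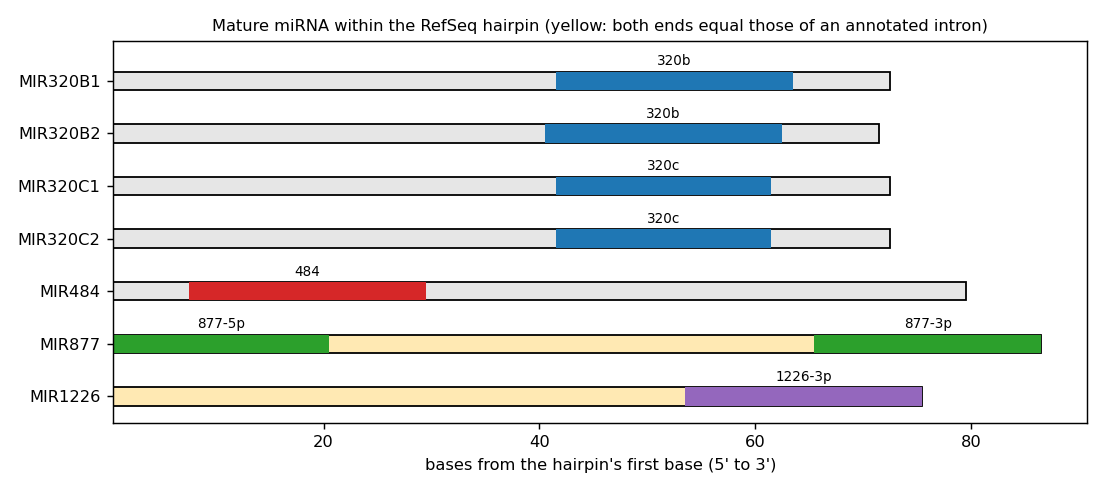
Position of each mature miRNA (coloured) within its RefSeq hairpin, drawn to scale in bases from the hairpin's first base, for the 7 hairpins with an entry. The mature species of MIR877 and MIR1226 reach an end of the hairpin, while miR-484 covers bases 8 to 29 of 79 and the miR-320b and miR-320c species begin at base 41 or 42.

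The hairpins of miR-484, miR-320b and miR-320c sat in other settings, and whether they carry a cap was not tested. MIR484 lies at chr16:15643294-15643372 on the plus strand, inside an exon of NDE1, a gene for a partner of the dynein motor in mitosis, and starts 27 bases downstream of an annotated NDE1 transcript start. MIR320B1, at chr1:116671746-116671817 on the plus strand, overlapped no annotated host gene. MIR320B2, at chr1:224257040-224257110 on the minus strand, lies in an intron of NVL, a gene for an ATPase of ribosome assembly, and runs in the same direction. MIR320C1 (chr18:21683518-21683589) and MIR320C2 (chr18:24321675-24321746) are both on the plus strand and lie within the spans of ABHD3 and OSBPL1A, which are transcribed from the other strand. The nearest annotated start on the same strand, miRNA entries left out, was farther from the miR-320 hairpins: 11023 bases upstream of MIR320B2, 9890 upstream of MIR320C1, 22366 downstream of MIR320B1 and 43112 downstream of MIR320C2. None of these 5 hairpins equals an annotated intron. miR-484 lies on the 5′ arm of its hairpin, and miR-320b and miR-320c lie on the 3′ arm of theirs.

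A library held 6631839 to 16207031 table counts, with 12 h replicate 3 and 0 h replicate 3 the shallowest. Levels are given as counts per 1000000 table counts after TMM scaling (CPM), and a count of 3, used as the floor for a count of 0, stood for 0.176 to 0.471 CPM. Table counts repeat mature miRNAs with several precursors, so CPM is lower than a share with each counted once. In 0 h replicate 1 the totals were 15121491 and, with each mature miRNA counted once, 9764870. Floors and the exact intervals of shares cover counting error only, because the labels name no molecular identifiers and reads may be copies of 1 molecule; the intervals of fold changes come from the edgeR fit and include the spread between replicates. The mature species here are 20 to 22 bases long and a read spans 1 of them, so no value was divided by length. In bulk RNA such as this, a change in the share of cells making a miRNA cannot be told apart from a change per cell. All 5 T cell and blood lineage miRNAs on the marker list were present, from 259 CPM for miR-150-5p to 29562 CPM for miR-181a-5p. Whether they set a T cell line apart from other blood cells was not tested. Muscle (miR-1-3p and miR-133a-3p), neuron (miR-124-3p) and 1 of 3 epithelial markers (miR-205-5p) were at 0 in all libraries, whereas the epithelial miR-200c-3p and miR-141-3p averaged 103 and 62.7 CPM and the myeloid miR-223-3p 134 CPM. The red cell markers miR-451a and miR-486-5p averaged 5.69 and 2.04 to 2.14 CPM and miR-144-3p had 2 counts in 1 library. The endothelial miR-126-3p averaged 13.4 CPM, and the liver miRNA miR-122-5p ranged from 0 to 66.8 CPM, the highest in 5 h replicate 3; their part in the results was not tested. miR-132-3p, a miRNA known to rise when lymphocytes are activated, averaged 3192 ± 295 CPM at 5 h and 442 ± 39.9 CPM at 0 h (SD, n = 3 each; log2 fold change 2.85, edgeR adjusted p = 3.19e-12).

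The 7 miRNAs spanned the abundance range of the libraries. Among 1098 mature names with any count, ordered by mean CPM over the 9 libraries, miR-320a-3p was 18th (6650 CPM) and miR-484 was 34th (2182 CPM). miR-320b was 98th (201 CPM), miR-877-5p 131st (80.1 CPM) and miR-320c 194th (20.4 CPM). miR-1226-3p was 413th (1.99 CPM) and miR-877-3p 684th (0.408 CPM). Neighbours in this order did not overlap over the 9 libraries, except that miR-1226-3p (0 to 3.54 CPM) and miR-877-3p (0 to 3.67 CPM) did. With each mature miRNA counted once, the summed share of the 7 species was 1.42 ± 0.177% (0 h), 1.38 ± 0.129% (5 h) and 1.47 ± 0.0969% (12 h; SD, n = 3 each). These shares overlapped between the times, from 1.23% to 1.58% over all libraries. miR-320a-3p and miR-484 alone held 96.0% to 97.2% of the summed counts of the 7, so that the sum says little of the mirtrons.

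**Figure D2:**
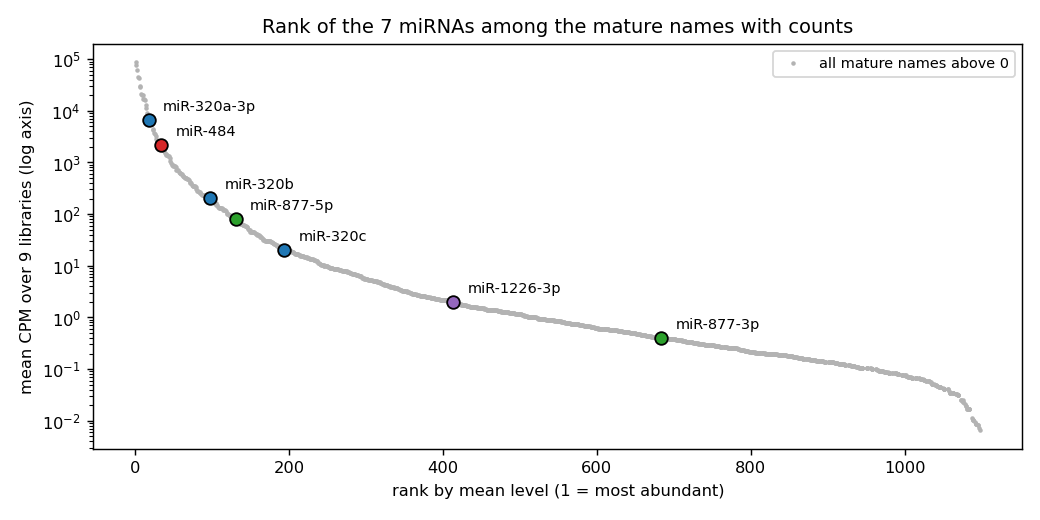
Mean level over 9 libraries (CPM, log axis) against rank for all 1098 mature names with counts, with the 7 miRNAs described here in colour. miR-320a-3p (rank 18) and miR-484 (rank 34) lie near the top, and miR-320b (rank 98) and miR-320c (rank 194) lie lower. The mirtron species run from rank 131 to rank 684.

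None of the 8 tested rows passed an adjusted p of 0.05 at any time. The count was 0 of 8 at 5 h against 0 h, where 1.57% of all tested rows passed, 0 of 8 at 12 h against 0 h (1.43%) and 0 of 8 at 12 h against 5 h (0.571%). A test for any difference among the 3 times also called 0 of 8, beside 1.71% of all rows (edgeR quasi-likelihood test, Benjamini-Hochberg over 701 rows). With 8 rows, a count of 0 is close to these background shares and is no result about these miRNAs. The median log2 fold change of the 8 rows was -0.01 at 5 h against 0 h, 0.05 at 12 h against 0 h and 0.19 at 12 h against 5 h. Over all 701 rows the medians were 0.03, 0.01 and -0.03 in the same 3 comparisons. At an unadjusted p under 0.05, 0, 1 and 2 of the 8 rows passed in the same order, against 42, 51 and 43 of the 701; DESeq2 and limma-voom also called 0 of the 8 in each comparison. The comparisons at 5 h and 12 h share the 0 h libraries.

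**Figure D3:**
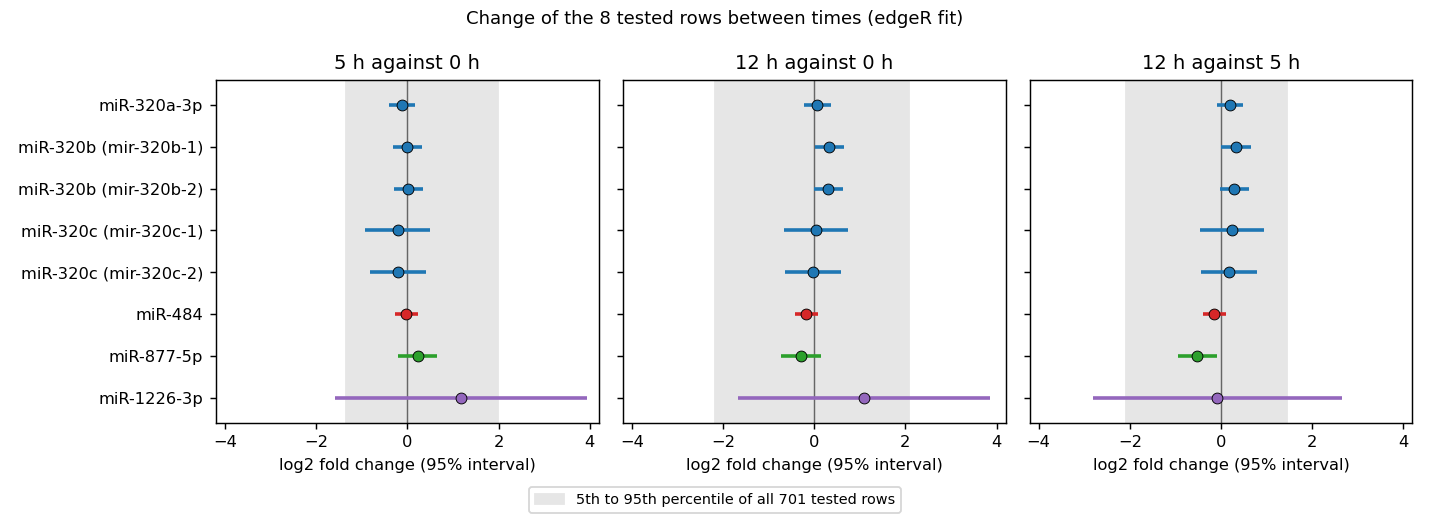
Log2 fold change with its 95% interval (edgeR) for the 8 tested rows in each comparison, with the 5th to 95th percentile of all 701 rows in grey. The intervals of miR-320a-3p and miR-484 cross 0 in every panel, and that of miR-1226-3p, the scarcest, reaches from -1.59 to 3.93 at 5 h against 0 h.

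miR-320a-3p, the main species of its family and reported to act on the glycolytic enzyme phosphofructokinase, was abundant at every time. Its level was 7035, 5517 and 7603 CPM in the 3 replicates at 0 h, 6894, 5895 and 5728 CPM at 5 h, and 5825, 7138 and 8217 CPM at 12 h. The highest library was 12 h replicate 3 and the lowest was 0 h replicate 2, and the 3 times overlapped. The means were 6718 ± 1078, 6173 ± 631 and 7060 ± 1198 CPM for 0, 5 and 12 h in turn (SD, n = 3 each). The fitted fold at 12 h against 0 h was 1.05, with a 95% interval from 0.859 to 1.29, and at 5 h against 0 h it was 0.919 (0.751 to 1.12); adjusted p was 0.986 and 0.996. The sign at 12 h against 0 h rested on single libraries: the log2 fold change of 0.07 became -0.09 without 12 h replicate 3 and -0.10 without 0 h replicate 2.

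miR-320b, which differs from miR-320c only at its 3′ end, showed a difference between 12 h and the earlier times that did not pass the adjusted threshold. On its mir-320b-1 row it was at 176, 194 and 184 CPM at 0 h, 199, 176 and 180 CPM at 5 h, and 201, 214 and 283 CPM at 12 h. All 3 libraries of 12 h were above all those of the earlier times, although the lowest of them, at 201 CPM, was close to the highest earlier one, at 199 CPM. The log2 fold change was 0.33 ± 0.15 (SE) at 12 h against 0 h, a fold of 1.26 with an interval from 1.01 to 1.58, with an edgeR p of 0.0447 and an adjusted p of 0.661. The log2 fold change at 12 h against 5 h was 0.33 ± 0.15 (SE), with a p of 0.0459 and an adjusted p of 0.720. Without 12 h replicate 3, the shallowest library of all, the log2 fold change at 12 h was 0.13 against 0 h and 0.15 against 5 h. At 5 h against 0 h it was 0.00, and its sign turned with the scaling (-0.03 with RLE factors).

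The mir-320b-2 row carries the same mature sequence and held nearly the same counts. It gave 175, 193 and 180 CPM at 0 h, 203, 170 and 182 CPM at 5 h, and 199, 213 and 266 CPM at 12 h. The 12 h libraries were again all above those of 0 h, but overlapped those of 5 h. Its log2 fold change was 0.31 ± 0.15 (SE) at 12 h against 0 h (adjusted p = 0.691) and 0.29 at 12 h against 5 h (adjusted p = 0.720). The 2 rows are not independent of each other.

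miR-320c was the scarcest of the family members described here. On the mir-320c-2 row it was at 18.3, 23.2 and 23.2 CPM at 0 h, 16.8, 20.2 and 18.8 CPM at 5 h, and 16.3, 23.7 and 23.4 CPM at 12 h. Replicate 1 was the lowest at each time, and the times overlapped. The mir-320c-1 row ran from 12.0 to 23.1 CPM, with means of 18.4 ± 3.27, 15.8 ± 2.38 and 18.9 ± 6.03 CPM for 0, 5 and 12 h in turn (SD, n = 3 each). Log2 fold changes of both rows lay between -0.22 and 0.25 in the 3 comparisons, with a standard error of 0.29 to 0.34, and the smallest adjusted p was 0.992.

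Within the family, miR-320a-3p held 97.0 ± 0.648% of the counts of the 3 species in 0 h cells, 96.8 ± 0.164% in 5 h cells and 96.5 ± 0.217% in 12 h cells (SD, n = 3 each). The ratio of miR-320a-3p to miR-320b within a library does not depend on scaling, though it does on how reads were assigned. It was 40.0, 28.4 and 41.3 at 0 h, 34.7, 33.5 and 31.8 at 5 h, and 28.99, 33.4 and 29.01 at 12 h. The ratio was highest in 0 h replicates 1 and 3 and lowest in 0 h replicate 2, so the 0 h libraries spanned the other times. The mean log2 ratio was 4.93 ± 0.117 at 12 h and 5.17 ± 0.299 at 0 h (SD, n = 3 each; exact two-sided permutation p = 0.4, adjusted over 9 ratio tests 0.72). Against 5 h (5.06 ± 0.0636) the 12 h ratio was lower by 0.13 (exact permutation p = 0.2, adjusted 0.675), and the smallest p that 3 against 3 allows is 0.1.

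The remaining entries of the family were rare. miR-320d on its mir-320d-1 row averaged 2.76 ± 0.784, 3.55 ± 1.73 and 3.34 ± 0.837 CPM for 0, 5 and 12 h in turn (SD, n = 3 each). Its mir-320d-2 row averaged 1.89, 1.51 and 0.561 CPM at those times, and the log2 fold change at 12 h against 0 h was 0.28 on the first row and -1.69 on the second (adjusted p = 0.991 and 0.974). miR-320e averaged 1.25, 1.78 and 2.33 CPM at 0, 5 and 12 h, and miR-320a-5p, the other arm of miR-320a, had at most 16 counts in a library and none outside 5 h. Of these 3 names, 2 were tested and 0 passed in any comparison.

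miR-484, also reported elsewhere to come from a capped hairpin, had the smallest spread between replicates of the 8 rows tested. It was at 2624, 2189 and 2037 CPM at 0 h, 2291, 2137 and 2294 CPM at 5 h, and 2198, 2094 and 1773 CPM at 12 h. The lowest library was 12 h replicate 3, the one in which miR-320a-3p and miR-320b were highest, and the times overlapped. Its fold at 12 h against 0 h was 0.885 with an interval from 0.742 to 1.06 (adjusted p = 0.848), and at 5 h against 0 h it was 0.981 (0.823 to 1.17; adjusted p = 0.996). The fold at 12 h against 5 h was 0.902 (0.757 to 1.08; adjusted p = 1). The standard deviation of log2 CPM within groups was 0.148, against 0.217 for miR-320a-3p and a median of 0.159 over the 139 rows of at least 100 CPM.

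The ratio of miR-484 to miR-320a-3p compared the 2 most abundant of the species described here directly. It was 0.373, 0.397 and 0.268 at 0 h, 0.332, 0.362 and 0.401 at 5 h, and 0.377, 0.293 and 0.216 at 12 h. Libraries of every time lay above 0.37, and the lowest were the 2 shallowest, 12 h replicate 3 and 0 h replicate 3. The mean log2 ratio was -1.80 ± 0.404 at 12 h and -1.55 ± 0.304 at 0 h (SD, n = 3 each; exact permutation p = 0.6, adjusted 0.771). The difference at 12 h against 5 h was -0.34 (exact permutation p = 0.3, adjusted 0.675), and -0.13 without the 2 shallowest libraries; at 5 h against 0 h it was 0.09 (exact permutation p = 0.8), and -0.08 without them. The part of depth in these values was not tested.

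**Figure D4:**
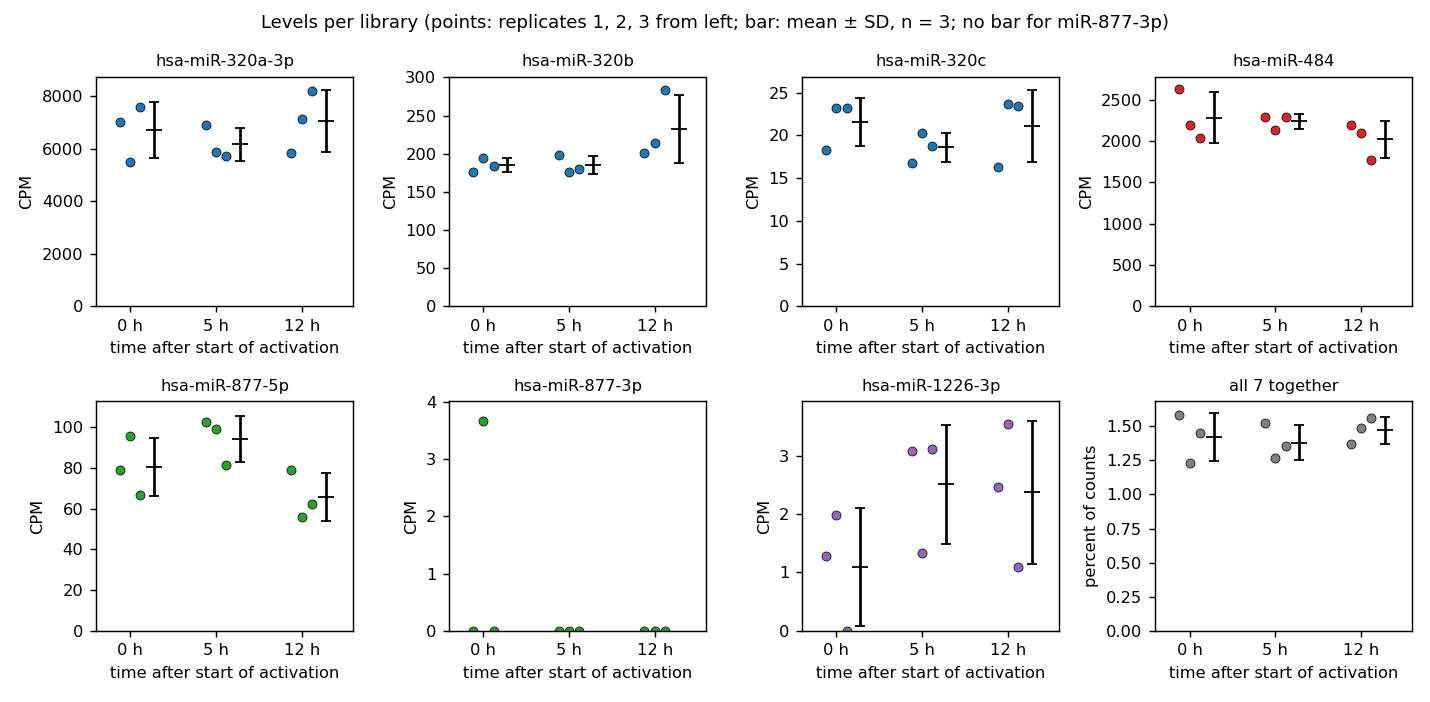
CPM per library for each of the 7 miRNAs (the mir-320b-1 and mir-320c-2 rows for miR-320b and miR-320c) and, in the last panel, their summed share of counts; points are replicates 1, 2 and 3 and bars are mean ± SD (n = 3, none drawn for miR-877-3p). The 12 h points of miR-877-5p, from 56.0 to 78.7 CPM, lie below the 5 h points, from 81.3 to 103 CPM, and miR-877-3p has 1 library above 0.

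miR-877-5p, released from the ABCF1 intron, was the one mirtron species present in depth. Its level was 78.9, 95.5 and 66.9 CPM at 0 h (439 to 1249 counts), 103, 98.8 and 81.3 CPM at 5 h (963 to 1386 counts), and 78.7, 56.0 and 62.5 CPM at 12 h (398 to 1054 counts). Every 12 h library was below every 5 h library, and the 0 h libraries overlapped both. The fold at 12 h against 5 h was 0.698 with an interval from 0.517 to 0.942. This was -0.52 ± 0.21 (SE) on the log2 scale, with an edgeR p of 0.0214 and an adjusted p of 0.720. Against 0 h the log2 fold change was -0.29 at 12 h (adjusted p = 0.870) and 0.23 at 5 h (adjusted p = 0.996). The 12 h against 5 h value was negative in each of the 21 settings tried, from -0.69 to -0.36, and the smallest adjusted p among them was 0.296.

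Groups that did not overlap were common in the table. At 5 h against 0 h, 0 of the 8 rows had groups apart, where 10.8% of all 701 rows did. At 12 h against 0 h, 2 of 8 did, both rows of miR-320b, beside 12.1% of all rows. In the comparison of 12 h with 5 h, 2 of 8 did, mir-320b-1 (higher at 12 h) and miR-877-5p (lower at 12 h), beside 12.8%. Counts of 2 in 8 that hold the same mature miRNA on both rows, or 1 row in each direction, are too few to set apart from that background.

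miR-877-3p, the other arm of the same hairpin, was seen in 1 library. It had 48 counts (3.67 CPM) in 0 h replicate 2 and 0 counts in the other 8 libraries. In that library it was 3.70% of the reads of the hairpin, while in the libraries at 0 the counts of miR-877-5p allow a share of up to 0.216% (5 h replicate 3) to 0.754% (12 h replicate 3). Over all 9 libraries the 3p arm had 48 counts and the 5p arm 8480, a 3p share of 0.563%. The exact Clopper-Pearson interval of this pooled share ran from 0.415% to 0.746%. It takes reads as independent, and the 3.70% of 0 h replicate 2 lies outside it, so it does not give the spread between libraries. The difference in the log2 ratio of the arms (counts plus 0.5) against 0 h moved with 0 h replicate 2. At 12 h against 0 h it was 1.78 (exact permutation p = 0.7), and -0.17 without that library. For 5 h against 0 h it was 2.57 (exact permutation p = 0.3), and 0.63 without that library. At 12 h against 5 h it was -0.80 (exact permutation p = 0.2, adjusted 0.675). Where miR-877-3p was at 0 in every library compared, the ratio followed the miR-877-5p count alone and said nothing of arm use.

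miR-1226-3p, from the DHX30 intron, was scarce. The 0 h libraries held 20, 26 and 0 counts (1.29, 1.99 and 0 CPM), the 5 h libraries 33, 13 and 53 (3.08, 1.33 and 3.11 CPM) and the 12 h libraries 33, 42 and 7 (2.47, 3.54 and 1.10 CPM). Both libraries with the fewest counts, 0 h replicate 3 and 12 h replicate 3, were also the 2 shallowest, and the times overlapped. The log2 fold change was 1.17 at 5 h and 1.09 at 12 h against 0 h, with 95% intervals from -1.59 to 3.93 and from -1.67 to 3.85 (adjusted p = 0.996 and 0.974). Single 0 h libraries moved these values: without 0 h replicate 3 they were 0.61 and 0.54, and without 0 h replicate 2 they were 1.88 and 1.79. The value at 12 h was 0.69 without 12 h replicate 2. Here the 3p arm led, with 227 counts against 41 for miR-1226-5p, whereas in mir-877 the 5p arm led. The share pooled over libraries was 84.7% (exact interval 79.8% to 88.8%, which leaves out the spread between libraries). miR-1226-5p had counts in 3 libraries.

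**Figure D5:**
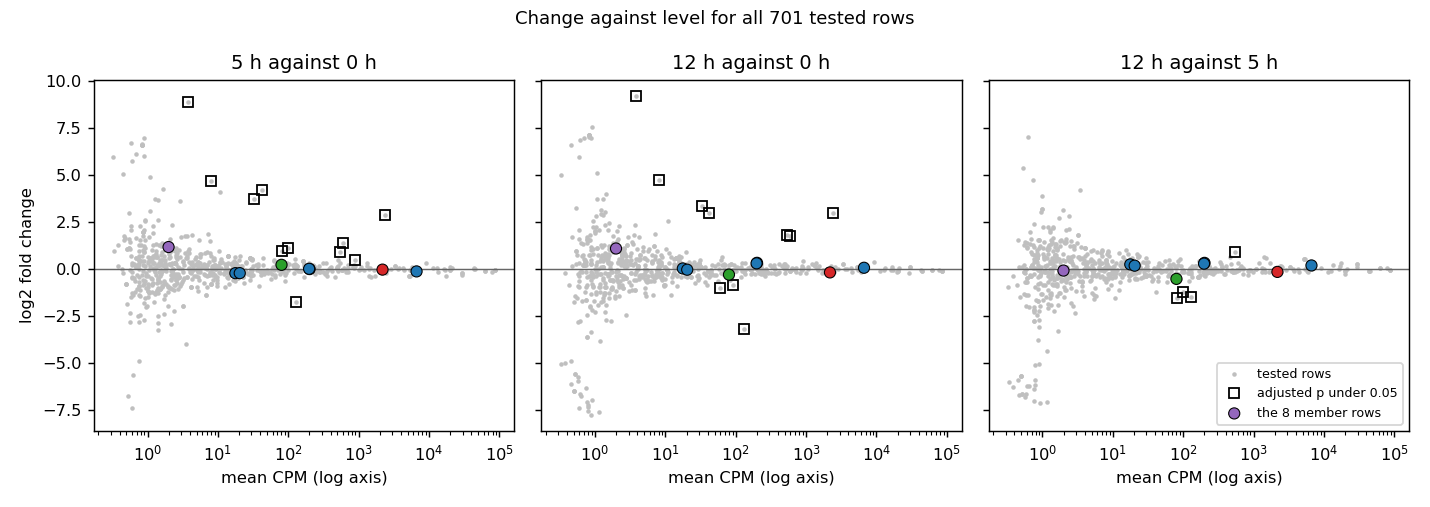
Log2 fold change against mean CPM (log axis) for all 701 tested rows in each comparison, with the 8 rows described here in colour and rows of adjusted p under 0.05 boxed. The coloured points of miR-320, miR-484 and miR-877-5p lie between -0.52 and 0.33, none is boxed, and miR-1226-3p sits among the scattered rows of few counts.

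Other entries catalogued as mirtrons were absent or scarce. Of 21 such mature names in the table, 12 had a count in any library, 2 were tested and 0 passed. miR-1224-5p averaged 3.08 ± 0.357, 1.70 ± 1.23 and 2.40 ± 2.46 CPM for 0, 5 and 12 h in turn (SD, n = 3 each). miR-1226-5p averaged 0.331 CPM at 0 h and 0.663 CPM at 5 h, and was listed at 0 in the 3 libraries of 12 h. Looking instead at sequence, 40 mature names in the table had a RefSeq entry within a hairpin that equals an annotated intron. Arms of these hairpins without a RefSeq entry were left out, although some of them had counts. Of these 40, 22 had a count and 3 were present in every library: miR-877-5p, miR-6807-5p (285 counts) and miR-1224-5p (261 counts); miR-6807-5p was named after its values were seen. miR-877-5p alone made up 87.9% of the 9647 counts of the 40 names.

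Entries that come from small nucleolar RNAs, which are also reported to bypass Drosha, were few. Of 9 names on the list, 7 were found in the table, 5 were tested and 0 passed. miR-664a-5p averaged 12.7 ± 9.15, 15.4 ± 5.62 and 9.54 ± 0.333 CPM for 0, 5 and 12 h in turn, and miR-1291 averaged 7.83 ± 0.741, 11.4 ± 5.61 and 14.3 ± 3.67 CPM at the same times (SD, n = 3 each). miR-3651 averaged 9.72, 3.81 and 6.97 CPM and miR-664b-5p 7.67, 6.10 and 5.89 CPM at 0, 5 and 12 h. miR-451a, which needs Drosha but not Dicer, averaged 6.11 ± 2.38, 6.24 ± 3.06 and 4.72 ± 3.07 CPM at 0, 5 and 12 h (SD, n = 3 each) and did not pass.

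The patterns most like those of the 2 abundant species were sought among 116 mature names of at least 100 CPM, by the Pearson correlation of log2 CPM over the 9 libraries, as a description. For miR-320a-3p these were miR-1307-3p (0.93), miR-1246 (0.92) and miR-425-3p (0.90), and the least alike was miR-140-5p (-0.96). For miR-484 they were miR-107 (0.95), miR-652-3p (0.94) and miR-1908-5p (0.89), and the least alike was let-7c-5p (-0.89). No list was common to both species, and miR-320a-3p and miR-484 themselves had a correlation of -0.43. miR-320a-3p and miR-320b had 0.56, miR-320b and miR-484 had -0.77, and miR-484 and miR-877-5p had 0.47. These points share libraries, depth and scaling, and the extreme values were picked from many.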

How the data were processed

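Small RNA libraries were sequenced from the total RNA of 9 Jurkat samples. Raw counts were deposited in 1 table with a row per pair of precursor and mature miRNA, in which reads of a mature miRNA with several precursors can appear on each row. They also deposited log2 normalised values for the 430 rows above 0 in every library, which equal log2 of count over 1 factor per library, plus 1, to within 5.05e-09 and were used in 1 alternative (7 of the 9 rows described). Per the submitters' processing notes, reads were set on GRCh38.p13 and DESeq2 was among the tools; the sources used here do not give the aligner or the counter.

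Groups and replicates came from the sample titles. The whole table was filtered with filterByExpr (minimum count 10, total 15) and scaled by TMM. It was fitted in edgeR 4.0.16 (R 4.3.3) by quasi-likelihood with 1 mean per time over 9 libraries, and p was adjusted by Benjamini-Hochberg over 701 rows, with a threshold of 0.05. Ratios within libraries used counts plus 0.5 and exact two-sided permutation tests. Alternatives used other scalings and filters, DESeq2 1.42.0, limma 3.58.1 and libraries left out. The fit was tested on simulated data. No 2 libraries of the same time agreed within sampling noise (chi-square over degrees of freedom 66.2 or more). Sequences came from RefSeq (GRCh38.p14), introns from GENCODE 29 and figures from matplotlib 3.10.9.

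The miRNAs described and the lists were chosen with earlier results of these data known. The naming rule took all 7 miRNAs, up to 4 tested members of each list by mean CPM, the 3 most alike and 1 least alike miRNA for miR-320a-3p and miR-484, and miR-132-3p.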

Additional observations from a re-analysis of the deposited data

How the results depend on the processing

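The count of the 8 rows passing the threshold was 0 in every setting and comparison, so no call was gained or lost; the smallest adjusted p of any of them was 0.183 (mir-320b-1, 12 h against 5 h, upper quartile factors). Upper quartile factors moved the median of all rows by 0.156 at 12 h against 0 h and 0.164 at 12 h against 5 h, and leaving out 12 h replicate 3 moved that at 12 h against 0 h by -0.10.

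Over the whole table, calls at 5 h against 0 h numbered 11, with 17 without a filter and 5 on the deposited log2 values. At 12 h against 0 h there were 10, with 6 on the deposited log2 values and 6 with only the 2 groups compared. At 12 h against 5 h there were 4, with 12 without a filter, 11 with the replicate block and 3 to 10 with 1 library left out (10 without 12 h replicate 1). For any difference there were 12, with 21 without a filter, 7 on the deposited log2 values, 21 with the replicate block and 7 to 15 with 1 library left out (7 without 12 h replicate 2). Correlations between times ran from -0.0297 to 0.0604 for libraries of the same replicate number and from -0.114 to 0.0858 for different numbers. Of 18 best matches between times, 7 shared a number. This check cannot exclude pairing, because the median tested row had a within-group SD of 0.786 on the log2 scale. The block changed no call among the 8 rows.

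Of 492 recomputed log2 changes of the 8 rows, 49 changed sign, all of changes near 0 or of few counts, and the cause was not tested. For mir-320b-1 at 5 h against 0 h (0.00) the values were -0.0262 with RLE factors and DESeq2, -0.0260 with no filter, -0.0291 for limma on the log2 table, -0.0252 with 1 row per mature name, -0.0068 with upper quartile factors, -0.068 with the stricter filter and -0.0157 with only the 2 groups, and -0.092 to 0.0041 with 1 library left out. For mir-320b-2 they were -0.0126 with RLE factors, -0.0127 with DESeq2, -0.0120 with no filter, -0.054 with the stricter filter, -0.0169 for limma on the log2 table and -0.0016 with only the 2 groups, and -0.0945 to 0.023 with 1 library left out. miR-484 gave 0.027 with library totals at 5 h against 0 h (-0.10 to 0.11 with 1 library left out) and 0.017 with upper quartile factors at 12 h against 5 h. At 12 h against 0 h, miR-320a-3p ranged from -0.10 to 0.18 with 1 library left out. There mir-320c-1 gave -0.014 with limma-voom, -0.036 from the log2 table, -0.0019 with the replicate block and -0.16 to 0.24 with 1 library left out, and mir-320c-2 gave 0.013 with library totals, 0.13 with upper quartile factors and -0.15 to 0.089 with 1 library left out. miR-1226-3p at 12 h against 5 h gave 0.10 with upper quartile factors, 0.24 without the 2 shallowest libraries and -0.49 to 0.24 with 1 library left out. The log2 ratio of miR-484 to miR-320a-3p at 5 h against 0 h was -0.0795 without the 2 shallowest libraries and -0.0795 to 0.20 with 1 left out (-0.0795 without 0 h replicate 3), and that of miR-877-5p to miR-877-3p at 12 h against 0 h was -0.17 to 3.12 (-0.17 without 0 h replicate 2). miR-1226-3p and miR-877-3p had the fewest counts of the miRNAs described here, at 53 or fewer in any library, and the part of depth was not tested.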
